A study of Mus musculus with 6 samples.

Results

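Superoxide dismutases, peroxiredoxins and glutathione reductase are enzymes that remove superoxide and hydrogen peroxide from cells, and their transcripts were followed in the neonatal mouse brain after acute ethanol. The group was chosen by gene symbol and comprises Sod1, Sod2, Sod3, Prdx1 to Prdx6 and Gsr, which are 10 genes. Probesets that the platform annotation pairs with exactly 1 gene were found for 8 of them, out of 19938 genes named on the array in this way, and these 8 genes had 10 probesets. Prdx5 and Prdx6 were not analysed here. Each gene was represented by the probeset that was brightest on average, and further probesets are given beside it.

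Both groups were 7-day-old male pups of the inbred strain C57BL/6J, which carries a deletion in Nnt, the mitochondrial enzyme that makes NADPH from NADH. Ethanol pups received 2 subcutaneous doses of 2.5 g/kg, given as a 20% solution in saline and 2 h apart, and control pups received saline alone. Pups were killed 4 h after the first injection and the whole brain was taken. Each array held RNA pooled in equal amounts from 3 males of different litters, with 2 ethanol pools (arrays 2 and 4) and 4 saline pools (arrays 1, 3, 5 and 6) from 18 mice. Every ethanol pup had a saline littermate in the study, but the labels do not tie pools to litters. A pool averages its pups and whole brain averages its regions, so the spread between individual mice or brain regions was not measured.

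Superoxide, which leaks from respiration and is made by NADPH oxidases, is converted to hydrogen peroxide by superoxide dismutases. The peroxide is then reduced by peroxiredoxins, with electrons from thioredoxin, and by glutathione peroxidases, with electrons from glutathione. Glutathione reductase regenerates the reduced glutathione with NADPH. Ethanol oxidation in the brain, in part by catalase, is one known source of oxidative load, and the immature brain is regarded as poorly defended against it.

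Many genes of this system are known targets of the transcription factor NRF2, which binds the antioxidant response element, and this is why the stretches before the gene starts were read. RefSeq promoter sequences (build GRCm38.p6) were matched for 7 of the 10 genes, Sod1, Sod2 and Prdx1 to Prdx5, and the 250 bases before each start were searched on both strands for the element's core, TGACNNNGC, and for the AP-1 element, TGANTCA. The AP-1 element was included because Jun, which encodes a subunit of AP-1, was among the few genes that passed the test of ethanol against saline described further on, at 1.22 ± 0.13 (SE) on the log2 scale (limma adjusted p = 0.00211). The 2 promoters with a match to the antioxidant core are shown 5′ to 3′ on the strand of the gene, with that match in capitals. That of Prdx1 is at chr4:116685349-116685598 and that of Sod1 at chr16:90220512-90220761, both on the plus strand.
Prdx1: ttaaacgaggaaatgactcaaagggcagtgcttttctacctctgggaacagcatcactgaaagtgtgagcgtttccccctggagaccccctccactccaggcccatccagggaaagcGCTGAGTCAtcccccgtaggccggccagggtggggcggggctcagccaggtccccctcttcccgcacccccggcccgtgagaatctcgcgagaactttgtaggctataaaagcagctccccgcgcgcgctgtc
Sod1: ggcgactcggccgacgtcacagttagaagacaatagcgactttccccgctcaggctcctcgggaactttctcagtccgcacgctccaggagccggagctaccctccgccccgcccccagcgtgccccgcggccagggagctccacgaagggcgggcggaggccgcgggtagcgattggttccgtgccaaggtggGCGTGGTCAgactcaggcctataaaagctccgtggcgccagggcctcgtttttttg

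The Prdx1 match lies 133 to 125 bases before the start and the Sod1 match 56 to 48 bases before it, both on the strand opposite to the gene. The Prdx1 promoter also holds 2 AP-1 matches, 1 at 237 to 231 bases before the start and 1 at 131 to 125 bases, which overlaps the antioxidant core. Of all 32851 promoters in the table, 10.2% hold a match to the antioxidant core and 6.75% one to AP-1, and here 2 of 7 and 1 of 7 did. The promoters of Sod2, Prdx2, Prdx3, Prdx4 and Prdx5 hold neither set of letters in this window. A match describes the letters only and was not tested for binding. The AP-1 element was chosen from a result of these same arrays, and a link between Jun and Prdx1 was not tested. No promoter was matched for Sod3, Prdx6 or Gsr, so the search says nothing about these genes.

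None of the 8 measured genes passed the test for a difference between ethanol and saline brains. The test was limma's moderated fit on log2 intensities, two-sided, with Benjamini-Hochberg adjustment over all 14954 genes tested and a threshold of 0.05. In that fit 12 genes, or 0.0802% of those tested, passed, 9 higher (0.0602%) and 3 lower (0.0201%) with ethanol. Centring of the arrays on their medians turned this split into 13 higher and 2 lower. With the dimmest 50% of genes left out it was 22 higher and 30 lower, and with array weights 21 higher and 35 lower. Differences below are log2 values, ethanol minus saline, with the standard error (SE) of the fit, and levels are log2 intensities.

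Within the group, Gsr and Sod3 had the smallest p-values, with differences of -0.18 ± 0.06 (SE) and -0.23 ± 0.07, and on both genes the 2 ethanol arrays lay below all 4 saline arrays. Prdx1 had a difference of -0.16 ± 0.07 with overlapping groups, and Prdx2 one of -0.10 ± 0.06 with ethanol below saline. Sod1 and Prdx4 had positive differences, 0.11 ± 0.08 and 0.10 ± 0.08. The mitochondrial enzymes were closest to no difference, Sod2 at -0.07 ± 0.06 and Prdx3 at -0.03 ± 0.06. In all 6 of 8 genes were below 0, where 58.6% of all genes tested were, and the median was -0.09, against -0.02 for all genes tested.

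Ethanol lay below saline without overlap for 3 of the 8 genes (Gsr, Sod3 and Prdx2), where 15.0% of all genes tested did so, and above it for none, where 7.68% did. At an unadjusted p under 0.05 in limma, 3 of 8 were lower (Gsr, Sod3 and Prdx1) and none higher, against 8.45% and 3.85% of all genes tested. Without ethanol array 4 or without saline array 6, 5 genes lay below without overlap, without ethanol array 2 or saline array 3 it was 4, and after quantile normalization it was 2. Without ethanol array 2 or saline array 5, 1 gene lay above without overlap. The count over all genes, in either direction, moved too, from 3384 to 6931 without ethanol array 4 and 7232 without ethanol array 2. It was 4160 without saline array 6, 4769 without saline array 3, 4086 without saline array 5 and 3645 after quantile normalization, out of 14954. These counts over all genes cover both directions, whereas the 5, 4 and 2 genes above are lower ones only. The 3 genes at an unadjusted p under 0.05 became 2 after centring, after quantile normalization and with the mean of a gene's probesets. They were also 2 with array weights, with no variance prior and without saline array 1 or saline array 5. In each case these were Sod3 and Gsr, both lower. Without saline array 3, Prdx2 joined them in place of Prdx1 (unadjusted p in limma 0.0463 and 0.0574). Over all genes, those lower at that p numbered 897 after centring, 1018 after quantile normalization, 1276 with probeset means and 1444 with array weights. They numbered 1144 with no variance prior and 1394, 1572 and 854 without saline arrays 1, 3 and 5 in turn. Prdx2 lay below without overlap on its brighter probeset, and its other probeset overlapped. The brighter one is numbered among genes of chromosome 1, while Prdx2 lies on chromosome 8. For Sod3, both ethanol values are under the background level of 6.21 described below. These are small counts, and the genes were chosen with earlier results of these arrays known. Over all genes the unadjusted p-values leaned to lower with ethanol, with 575 higher and 1263 lower, and this lean depended on scaling, since after centring of each array on its median there were 1018 higher and 897 lower.

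**Figure D1:**
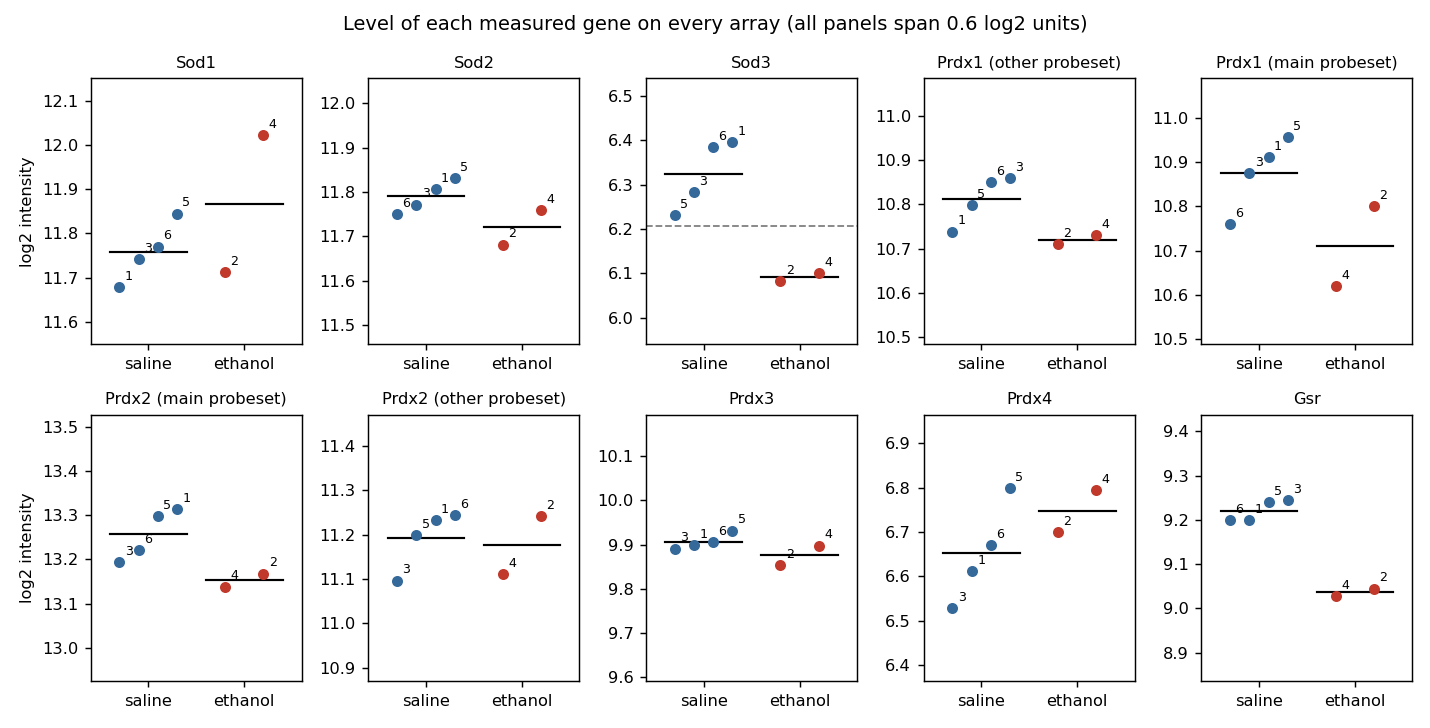
Log2 intensity (vertical axes, each spanning 0.6 units) of the 10 probesets of the 8 measured genes on every array. Points are pools labelled with their array number, 4 saline in blue and 2 ethanol in red, bars are group means, and the dashed line in the Sod3 panel is the background level of 6.21. Ethanol points lie below all saline points for Sod3, Gsr, the main probeset of Prdx2 and the other probeset of Prdx1.

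Sod1 encodes the copper-zinc superoxide dismutase of the cytosol, the most abundant of the 3 dismutases in most cells. Its level was 11.68, 11.74, 11.84 and 11.77 on saline arrays 1, 3, 5 and 6 and 11.71 and 12.02 on ethanol arrays 2 and 4. Array 4 was thus the highest of the 6 and array 2 lay inside the saline range, so that the groups overlapped. Group means were 11.76 ± 0.07 (SD, n = 4) for saline and 11.87 ± 0.22 (SD, n = 2) for ethanol, and the difference of 7.74% had a 95% interval of -5.02% to 22.2% (limma adjusted p = 0.634). It rested on array 4, since without that array it was -0.05, and without ethanol array 2 it was 0.26 (limma adjusted p = 0.315, unadjusted 0.0108).

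Sod2, the manganese superoxide dismutase of the mitochondrial matrix, was 11.81, 11.77, 11.83 and 11.75 on the saline arrays in the same order and 11.68 and 11.76 on the ethanol arrays. Only ethanol array 2 lay below the saline range. The difference was -4.71%, with a 95% interval of -12.9% to 4.27% (limma adjusted p = 0.676). An increase of Sod2 transcript above that upper bound is outside the interval of the fit.

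Sod3 encodes the extracellular superoxide dismutase, which is secreted and bound to the matrix, in particular around blood vessels. Its saline levels were 6.40, 6.28, 6.23 and 6.38, and its ethanol levels 6.08 and 6.10. Both ethanol values were below all saline values, and the means were 6.32 ± 0.08 (SD, n = 4) and 6.09 ± 0.01 (SD, n = 2). The difference of -14.9% (95% interval -22.9% to -5.98%) did not pass, with a limma adjusted p of 0.193 and an unadjusted p of 0.00410. As a guide to background, 95% of 1194 olfactory and vomeronasal receptor genes, which a brain should hardly transcribe, had means under 6.21. Both ethanol values of Sod3 are under that level, so part of its range lies at background, where intensity follows transcript number poorly.

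Markers of pericytes and smooth muscle, cells that surround the vessels near which this enzyme is found, had small differences of the same sign. All 10 tested markers were below 0, with a median of -0.09, none passed, 1 reached an unadjusted p under 0.05 in limma, and 3 did not overlap. Of all genes tested 58.6% were below 0, 8.45% were lower at that p and 15.0% were lower without overlap. Endothelial markers, the other cells of the vessel wall, were split, with 5 above and 6 below 0 and a median of -0.01. The sign was not particular to vessel cells, since 65 of 96 genes over all marker lists were below 0 and 31 above. Among them were 5 of 5 pituitary, 8 of 11 choroid plexus and 8 of 10 microglia markers. Meningeal markers had 7 above and 5 below 0. The mean level of the pericyte and smooth muscle markers was 7.72 to 7.76 on the saline arrays and 7.63 to 7.67 on the ethanol arrays, and 3 of these markers, Higd1b, Tagln and Myh11, had means below the background level. Higd1b led them at -0.17 ± 0.06, followed by Rgs5, a regulator of G-protein signalling, at -0.11 ± 0.06. The part of these markers in the Sod3 difference was not tested, and in whole brain fewer cells of a type and less RNA per cell cannot be told apart.

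Prdx1 and Prdx2 are the cytosolic peroxiredoxins, which reduce hydrogen peroxide through a pair of cysteines and are recharged by thioredoxin. Prdx2 is known as abundant in neurons and red cells, and Prdx1 as more a glial enzyme in the brain. The main probeset of Prdx1 was 10.91, 10.87, 10.96 and 10.76 on saline arrays 1, 3, 5 and 6 and 10.80 and 10.62 on ethanol arrays 2 and 4. Ethanol array 4 was the lowest of the 6, and ethanol array 2 lay above saline array 6. The difference of -10.8% (95% interval -20.2% to -0.275%, limma adjusted p = 0.394) was -0.25 without ethanol array 2 and -0.07 without ethanol array 4, a range wider than that for Gsr.

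The other probeset of Prdx1 was 10.74, 10.86, 10.80 and 10.85 on saline and 10.71 and 10.73 on ethanol arrays. There the ethanol arrays lay just below all saline arrays, with a difference of -0.09 ± 0.06 (limma adjusted p = 0.589 over all probesets). Across the 6 arrays the probesets of Prdx1 correlated with r of only 0.26, so they shared the sign of the difference and little of the order of the arrays.

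The main probeset of Prdx2 gave the highest intensity of the group. It read 13.31, 13.19, 13.30 and 13.22 on the saline arrays and 13.17 and 13.14 on the ethanol arrays. Ethanol lay below saline by a narrow gap, and the difference was -6.90% (95% interval -15.1% to 2.15%, limma adjusted p = 0.531). The other probeset of Prdx2 was 11.23, 11.10, 11.20 and 11.24 on saline and 11.24 and 11.11 on ethanol arrays. There the groups overlapped completely, the difference was -0.02 ± 0.07, and the levels lay below those of Sod1 and Sod2. A lower Prdx2 was thus seen on 1 probeset of 2.

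The numbering of these probesets bears on what they read. Probeset numbers on this array follow the genome in large part, since 94.3% of neighbouring named probesets belong to genes on the same chromosome. The main Prdx1 probeset stands between Ccdc17 and Ccdc163, and all 20 of its nearest named neighbours, like Prdx1 itself, are on chromosome 4. The other Prdx1 probeset stands between Gcsam and Dppa4 with all 20 neighbours on chromosome 16. For Prdx2 it is the other way round, since the main probeset stands between Pam and Rnf152, with all 20 neighbours on chromosome 1, while the dimmer one stands between Rtbdn and Hook2, with all 20 on chromosome 8, where Prdx2 lies. Intronless copies of abundant transcripts are common in the mouse genome, and a probeset placed on such a copy can read the parent transcript too. Both Prdx1 and Prdx2 values are therefore uncertain as to which copy they count, and on the probesets whose numbers fit the genes' own chromosomes the differences were -0.16 for Prdx1 and -0.02 for Prdx2.

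Red cell markers, read because red cells carry Prdx2, could be measured only in part. Of 16 listed genes 3 were tested, while 6 haemoglobin genes lay on probesets of several genes, 4 genes were left out as dim and 3 were not analysed here. Their mean level was 7.10 to 7.39 on saline and 6.96 to 7.21 on ethanol arrays, with overlap. Slc4a1, the red cell anion exchanger, had a difference of -0.18 ± 0.10 and Alas2, the enzyme of erythroid haem synthesis, one of -0.23 ± 0.17. Neither passed in limma, and their part in the Prdx2 values was not tested.

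Prdx3, the peroxiredoxin of mitochondria, had the smallest range over the 6 arrays of the 8 genes, at 9.90, 9.89, 9.93 and 9.91 on saline and 9.85 and 9.90 on ethanol arrays. The groups overlapped, and the difference of -2.17% had a 95% interval of -10.2% to 6.62% (limma adjusted p = 0.870). Its levels followed those of Sod2, the other mitochondrial enzyme, with r of 0.89 over 6 arrays, the highest of the 28 pairs within the group. This is a description over 6 arrays that share normalization.

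Prdx4, the peroxiredoxin of the endoplasmic reticulum, helps oxidative protein folding by using the peroxide made there. Its levels were 6.61, 6.53, 6.80 and 6.67 on saline and 6.70 and 6.79 on ethanol arrays, above the background level on every array. Saline array 5 was the highest of the 6, and the difference of 6.81% (95% interval -4.79% to 19.8%) did not pass (limma adjusted p = 0.648). Without saline array 3, the lowest, it was 0.05, and without saline array 5 it was 0.14.

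Gsr encodes glutathione reductase, which keeps glutathione in its reduced form. It was 9.20, 9.24, 9.24 and 9.20 on saline arrays 1, 3, 5 and 6 and 9.04 and 9.03 on ethanol arrays 2 and 4. The arrays fell into 2 tight groups. The lowest saline value was 0.15 above the highest ethanol value, while the saline arrays spanned 0.05. Group means were 9.22 ± 0.03 (SD, n = 4) for saline and 9.04 ± 0.01 (SD, n = 2) for ethanol, a difference of -12.0% (95% interval -19.3% to -4.10%). It did not pass among all genes, with a limma adjusted p of 0.232 and an unadjusted p of 0.00709. With 1 array left out at a time it stayed between -0.19 and -0.18, the narrowest range of the 8 genes. The limma SE of 0.06 is set in part by the spread of other genes, and with no variance prior Gsr had the smallest unadjusted p of its alternatives, 0.000705 (adjusted p = 0.269, with the linear model fitted in limma).

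**Figure D2:**
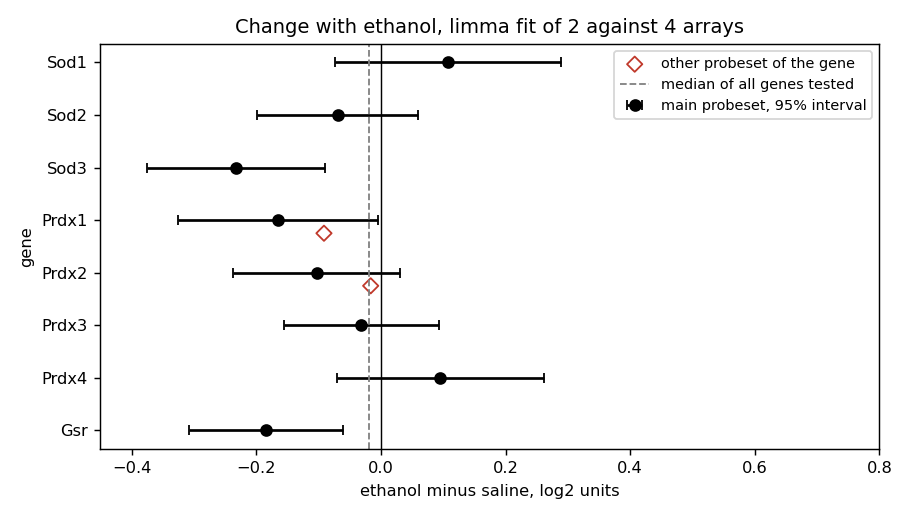
Ethanol minus saline difference (horizontal axis, log2 units) of the 8 measured genes, with the 95% interval of the limma fit over 2 ethanol and 4 saline arrays. Red diamonds are the other probesets of Prdx1 and Prdx2, and the dashed line is the median of all genes tested at -0.02. The intervals of Sod3, Gsr and Prdx1 lie below 0 before adjustment over all genes, and the other 5 cross 0.

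**Figure D3:**
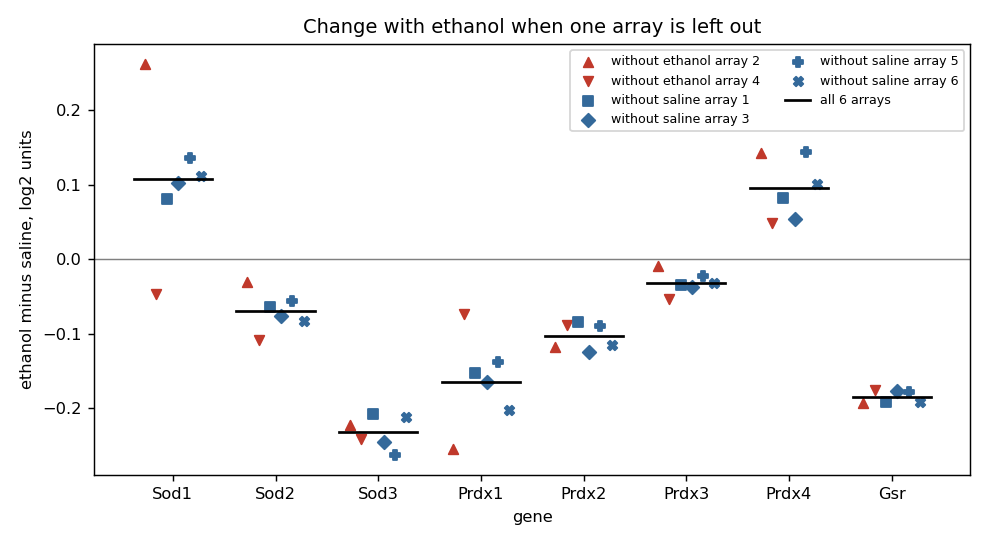
Ethanol minus saline difference (vertical axis, log2 units) of each gene with all 6 arrays (black line) and with 1 array left out (symbols). Gsr moves least, from -0.19 to -0.18, and Sod1 most, from -0.05 to 0.26 depending on which ethanol array is left out.

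The genes around these enzymes were read from 9 lists of the wider redox system, with 115 genes tested, each counted once. One of them, Txnip, passed, and none was lower. Of the 115, 7 higher and 8 lower genes had an unadjusted p under 0.05 in limma, against 3.85% and 8.45% of all genes tested. Ethanol did not overlap saline for 20 of them, where 22.6% of all genes tested did not overlap. Of the 20, 11 were higher and 9 lower, against 7.68% and 15.0% of all genes tested. The median difference was -0.01.

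The enzymes that share hydrogen peroxide as a substrate with the peroxiredoxins showed no difference that passed. Of 7 tested glutathione peroxidases and catalase, 5 were above 0 and 2 below, and the median was 0.02. All 7 overlapped between groups, where 22.6% of all genes tested did not. Catalase (Cat), which also oxidizes ethanol in the brain, was 10.99, 10.97, 10.99 and 11.04 on saline and 10.98 and 10.98 on ethanol arrays. The difference was -0.02 ± 0.06. Gpx6 had the smallest p of the list at 0.14 ± 0.10, followed by the secreted peroxidase gene Gpx3 at -0.09 ± 0.07. Next were Gpx7 at 0.05 ± 0.06 and Gpx8 at 0.03 ± 0.06. Gpx6 and Gpx7 were below the background level on every array.

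The glutathione that Gsr recycles is made by a pathway in which 13 genes were tested, 3 above and 10 below 0, with a median of -0.02. All 13 overlapped between groups, where 22.6% of all genes tested did not. Gss, glutathione synthetase, had a difference of -0.10 ± 0.07, Oplah, the oxoprolinase that returns glutamate to the pathway, -0.08 ± 0.07, Gclm, the regulatory subunit of the rate-limiting ligase, -0.05 ± 0.06 and Chac2, which degrades glutathione, -0.03 ± 0.07. Among 17 tested glutathione S-transferases, which conjugate glutathione to reactive compounds, 12 were below 0, none passed and the median was -0.03. They were led by Gstm3 at -0.12 ± 0.06, with the same sign on its other probeset, and by Gstm2 (-0.10 ± 0.07), Gstm4 (-0.10 ± 0.07) and Gstp1 (-0.09 ± 0.07). The Gstm genes are close relatives whose probesets may share targets.

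Thioredoxin, its reductases and its partners hand electrons to the peroxiredoxins, and this list held the widest differences. Txnip, which binds and inhibits thioredoxin, rose by 1.35 ± 0.13 (limma adjusted p = 0.00151), from 9.42 ± 0.26 (SD, n = 4) to 10.77 ± 0.08 (SD, n = 2). With no variance prior its limma adjusted p was 0.300. The thioredoxin gene Txn1 itself was at 13.33, 13.40, 13.39 and 13.37 on saline and 13.26 and 13.48 on ethanol arrays. The ethanol arrays lay on both sides of the saline range. The difference for Txn1 was 0.00 ± 0.07 and that for Txnrd1, the cytosolic thioredoxin reductase, -0.08 ± 0.07.

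Sesn1, a sestrin linked to the repair of overoxidized peroxiredoxins and known to restrain mTORC1, had a difference of 0.37 ± 0.07 (limma adjusted p = 0.0631). It passed with the dimmest 50% of genes left out (0.0378), after median centring (0.0450), after quantile normalization (0.0499) and with array weights (0.0450), all adjusted p in limma. It did not pass with no variance prior (0.314), with no filter (0.0707), with the mean of a gene's probesets (0.0596), over every probeset (0.0817) or with any 1 array left out (0.0953 to 0.388). Srxn1, the sulfiredoxin that restores overoxidized peroxiredoxins, was 8.63, 8.66, 8.63 and 8.57 on saline and 8.68 and 8.70 on ethanol arrays. Its groups did not overlap, and the difference was 0.07 ± 0.06. Txnl1, a thioredoxin-like protein of the proteasome, had -0.18 ± 0.06 and Msrb1, a methionine sulfoxide reductase, -0.15 ± 0.07, both with ethanol below saline and neither passing. Over the list 5 genes were higher and 2 lower without overlap, among 20 tested, where 7.68% of all genes tested were higher and 15.0% lower.

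Copper and manganese must be loaded into the dismutases before they act. Of 10 tested genes of this list, 7 were below 0, none passed, and the median was -0.04. Ccs, the copper chaperone of Sod1, had a difference of -0.01 ± 0.07 with a mean below the background level. Slc31a2, a relative of the copper importer, had -0.16 ± 0.07 with ethanol below saline by a gap of 0.0012, and -0.07 without ethanol array 2 and -0.25 without ethanol array 4. Further members were the manganese and zinc transporter gene Slc39a8 at -0.08 ± 0.07 and the manganese exporter gene Slc30a10 at -0.06 ± 0.07. Atp7b, a copper pump with a mean below the background level, had -0.06 ± 0.07.

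NRF2 regulators and known targets were split evenly, with 11 above and 10 below 0 among 21 tested and a median of 0.00. Nfe2l2, which encodes NRF2, had a difference of -0.13 ± 0.07 and its partner Mafk -0.21 ± 0.09. Ephx1, the microsomal epoxide hydrolase, had 0.19 ± 0.06, with ethanol above saline. Cbr3, below the background level on every array, had -0.13 ± 0.07. Its difference was -0.04 without ethanol array 2 and -0.23 without ethanol array 4. The frequently used reporters of this response gave no difference that passed, with haem oxygenase (Hmox1) at 0.00 ± 0.07 and Nqo1 at -0.05 ± 0.08. Nqo1 was below the background level on every array. By limma 0 of the list passed, while 2 of 21 reached an unadjusted p under 0.05, where 12.3% of all genes tested did.

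NADPH, which Gsr and the thioredoxin reductases consume, is supplied by enzymes of which 16 were tested, 7 above and 9 below 0. The mitochondrial folate enzyme Mthfd2 had a difference of -0.18 ± 0.07 and the malic enzyme Me2 -0.18 ± 0.07, both with ethanol below saline. For Me2 the gap was 0.0151, and the difference was -0.10 without ethanol array 2 and -0.26 without ethanol array 4. Nadk2, the mitochondrial NAD kinase, had 0.16 ± 0.06 with ethanol above saline, and Aldh1l2 0.18 ± 0.09. None passed, and 3 of 16 reached an unadjusted p under 0.05 in limma, where 12.3% of all genes tested did. Nnt, deleted in part in this strain, was read at 8.12 ± 0.06 (SD, n = 4) and 8.13 ± 0.10 (SD, n = 2), and whether its probes lie inside the deleted part is not given in the sources used here.

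On the side of production, 15 genes for sources of superoxide and peroxide were tested, 3 above and 12 below 0, with 6 at means below the background level. Ero1b, an enzyme that makes peroxide in the endoplasmic reticulum, where Prdx4 acts, had a difference of 0.20 ± 0.07, with ethanol above saline. Its relative Ero1a was brighter, with a mean of 9.44 against 6.72, and had a difference of -0.0006 ± 0.06 with overlap. Cybb, the NADPH oxidase subunit of phagocytes, had -0.15 ± 0.07 and Duoxa1 -0.16 ± 0.07, both below the background level on every array. The Cybb difference was -0.22 without ethanol array 2 and -0.08 without ethanol array 4. Nos3, the endothelial nitric oxide synthase, had -0.18 ± 0.10, from -0.36 without ethanol array 2 to 0.0053 without ethanol array 4. None passed, and 3 of 15 (Ero1b, Cybb and Duoxa1) reached an unadjusted p under 0.05 in limma, where 12.3% of all genes tested did.

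Metallothioneins bind zinc and copper and scavenge radicals, and they are induced by metals and glucocorticoids. Mt1 was 10.22 on average in saline and 10.46 in ethanol brains, a difference of 0.24 ± 0.07, and Mt2 had one of 0.26 ± 0.08, which was 0.40 without ethanol array 2 and 0.11 without ethanol array 4. For both, the ethanol arrays lay above all saline arrays, as they did for 7.68% of all genes tested. Neither passed (limma adjusted p = 0.193 and 0.241). Of 3 tested, these 2 had an unadjusted p under 0.05 in limma, where 3.85% of all genes tested were higher at that p. Mt3, the form typical of brain, had 0.04 ± 0.07 with overlap. Their direction was thus opposite to that of Gsr and Sod3, whose unadjusted p-values were of the same size.

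**Figure D4:**
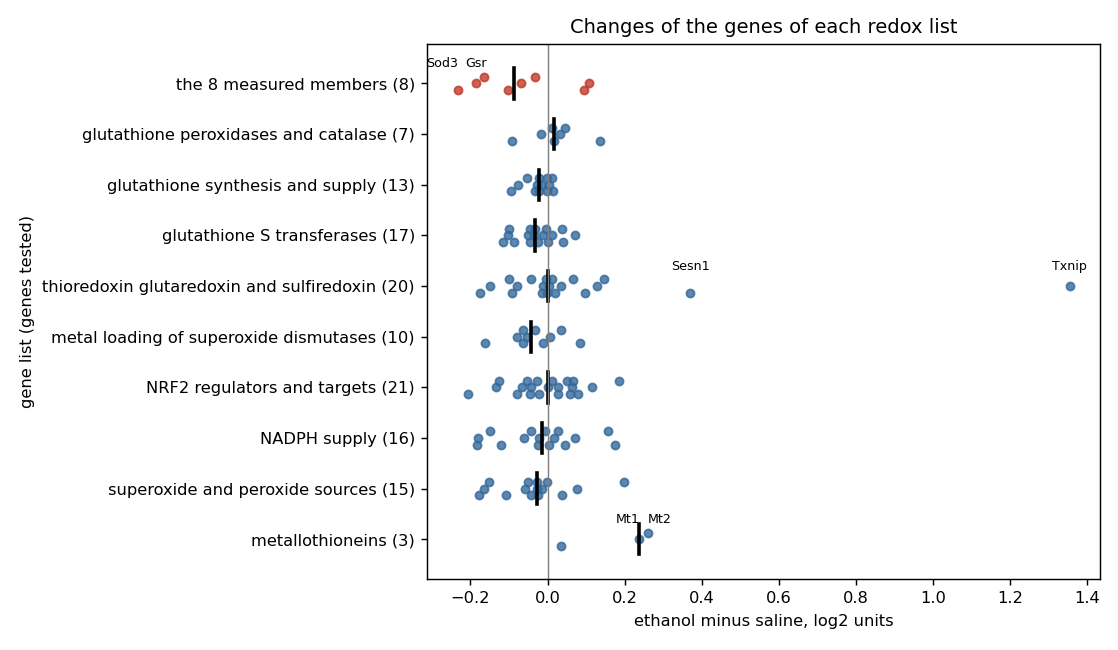
Ethanol minus saline difference (horizontal axis, log2 units) of every tested gene in the 8 measured genes (red) and in the 9 lists of the wider redox system (blue), with the number tested in brackets and a black bar at each median. Txnip at 1.35 stands far from all others, Sesn1 follows at 0.37, and Mt1 and Mt2 lie at 0.24 and 0.26.

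For each of the 8 genes, the gene outside the group whose levels were most like it over the 6 arrays was Slc17a6 for Sod1 (Pearson r of 0.988), Rnf7 for Sod2 (0.995), Peg12 for Sod3 (0.991), Myo3b for Prdx1 (0.997), Msrb1 for Prdx2 (0.993), Ska1 for Prdx3 (0.994), Fam126a for Prdx4 (0.997) and Cass4 for Gsr (0.997). Among 14954 genes and 6 arrays such values are common, and 41 to 146 genes per member had an r over 0.95.

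As facts of the whole data set, the first principal component placed saline array 3 at 13.5 and the other arrays between -7.49 and 2.95. No difference of the 8 genes changed sign without it. Markers of neurons and astrocytes were bright in all pools, with list means of 11.56 to 11.70 and 9.86 to 9.93 over the 6 arrays. Pituitary markers differed between pools, with a list mean of 6.79 to 6.95 on saline arrays, 6.60 on ethanol array 2 and 5.96 on ethanol array 4. Of 5 tested, 4 were lower at an unadjusted p under 0.05 in limma, where 8.45% of all genes tested were, and none passed. Ethanol array 4 also has the highest Sod1 and the lowest Prdx1, Prdx2 and Gsr values on their main probesets. It is not the extreme array for Sod2, Sod3, Prdx3 or Prdx4. Choroid plexus and ependyma markers had list means of 7.90 to 8.02 on saline and 7.87 to 7.89 on ethanol arrays. Marker lists of 10 cell types and tissues gave 96 tested genes, of which 0 passed in limma, while 15 reached an unadjusted p under 0.05, 1 of them higher and 14 lower, against 3.85% higher and 8.45% lower of all genes tested. The part of these cell types in the differences of the dismutases, peroxiredoxins and Gsr was not tested.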

How the data were processed

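The values are log2 intensities per probeset as the authors deposited them, taken to be log2 from their range of 4.10 to 14.9. The submitters' processing notes name Partek 6.6. Background correction, normalization and summarisation were not given in the sources used here, and small differences in 1 direction may depend on them. Of 35556 probesets, 21789 have 1 gene symbol, 1621 several and 12146 are unnamed here; 21698 matched a current gene record. Each gene took its probeset with the highest mean. The dimmest 25% of 19938 genes (4984) were left out, leaving 14954. limma 3.58.1 in R 4.3.3 was fitted to all 6 arrays with treatment as the only term, with 4 residual and 8.10 prior degrees of freedom. The fit was tried on simulated data with equal spread for every gene and changes larger than any of the 8 genes showed. That trial does not bear on differences as small as theirs. The number of arrays limits the precision. Replicates are pools of separate animals.

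Alternatives were the filter, scaling, probeset rule, array weights, variance prior and leaving out each array. The genes and lists were chosen with earlier results of these data known. All 8 measured genes are named, with up to 4 genes of smallest p from each pathway list and 2 each from the pericyte and erythroid marker lists; Cat, Txn1, Txnrd1, Srxn1, Ccs, Hmox1, Nqo1 and Nnt were added for their role after their values were seen. Ero1a was added in the same way, and its values under the alternatives are not given here. No set test was run. Neuron, astrocyte, oligodendrocyte, microglia, endothelium, pericyte, meninges, choroid plexus, erythroid and pituitary markers were listed.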

Additional observations from a re-analysis of the deposited data

Results flagged for a closer look

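Among 57 saline groups of 4 arrays checked for a value far from the others, 1 was found, where chance gives about 1 in 20. Gpx7, a peroxidase of the endoplasmic reticulum that was below the background level on every array, was at 5.96 on saline array 3. The gap to the nearest other saline array was 0.885 of the group's range.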

How the results depend on the processing

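None of the 8 genes passed under any alternative, and the differences of Sod2, Sod3, Prdx1, Prdx2, Prdx3 and Gsr stayed below 0 and those of Prdx4 above 0 in all of them. Sod1 ranged from -0.0471 to 0.262 with 1 array left out. Genes past the threshold numbered 12, and 52 with the dimmest 50% left out, 56 with array weights, 0 with no variance prior (1535 at an unadjusted p under 0.05 in limma) and 4 to 16 with 1 array left out. With 1 array left out there were 1171 to 2061 genes at an unadjusted p under 0.05 and 4086 to 7232 without overlap. Pathway genes past the threshold were 1, and 2 with the dimmest 50% left out, after centring, after quantile normalization and with array weights, and 0 with no variance prior. At an unadjusted p under 0.05 there were 15, 6 with no variance prior and 8 to 15 with 1 array left out. Marker genes past it were 0, 2 with the dimmest 50% left out, 1 with array weights and 0 to 2 with 1 array left out; at an unadjusted p under 0.05 there were 15, and 9 to 17 with 1 array left out. The cause of these shifts was not tested. Among the other genes named, signs turned with 1 array left out for Gpx6 (-0.0808 to 0.355), Gpx7 (-0.0156 to 0.108), Chac2 (-0.107 to 0.0427), Gstp1 (-0.179 to 0.00475), Atp7b (-0.127 to 0.00159), Nos3 (-0.360 to 0.00533), Mt3 (-0.0107 to 0.0691), Alas2 (-0.525 to 0.0655), Txn1 (-0.113 to 0.106), Txnrd1 (-0.158 to 0.000553), Ccs (-0.0486 to 0.0373), Hmox1 (-0.0786 to 0.0787), Nqo1 (-0.194 to 0.102) and Nnt (-0.0567 to 0.0905). Signs also turned after centring for Cat (0.00217), Txn1 (0.0146) and Ccs (0.00654), after quantile normalization for Txn1 (0.00248), Ccs (0.0501) and Nqo1 (0.00567), and with array weights for Txn1 (0.00270) and Hmox1 (-0.00996). Where 1 ethanol array was left, it was assumed to vary like the saline arrays. Sod3 and Prdx4 were among the dimmest 50% and have no value there. No paired analysis was possible because the labels do not tie pools to litters.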
